A study of Mus musculus with 8 samples.

Results

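The genes described here encode the proteins of the cytosolic ribosome. They were taken by name, as all gene symbols that begin with Rpl or Rps except the S6 kinases (symbols beginning with Rps6k) and *Rps19bp1*, and 89 of the 13704 genes with reads met this rule. Of these, 46 encode canonical proteins of the large subunit and 31 canonical proteins of the small subunit, 7 are paralogs of a canonical gene and 5 are named as pseudogenes. Ribosomal proteins whose genes carry other names, such as *Fau* and *Rack1*, are not among the 77 canonical genes.

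RNA was sequenced from Th17 cells, helper T cells that make IL-17, grown in vitro from C57BL/6 mice. Naive CD4+ T cells were held for 3 days in TGFβ at 0.5 ng/ml with IL-6 at 20 ng/ml and then stimulated again with anti-CD3, in both groups alike. The WT group was wild type, and the KO group was TRIM28fl/flxCD4cre, in which Cre driven by the *Cd4* promoter removes *Trim28*, the gene of a chromatin-associated co-factor, during T cell development rather than at the start of the culture. There was 1 library per genotype, and how many mice gave the cells is not given in the sources used here.

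The cytosolic ribosome reads mRNA and joins amino acids into protein, with a small subunit that decodes and a large subunit that forms the peptide bond. Its proteins are needed in near equal numbers, and their mRNAs are among the most abundant in a dividing cell. Most of these mRNAs begin with a 5′ terminal oligopyrimidine (TOP) tract, a C followed by a run of C and T in the DNA, through which mTOR and LARP1 set their translation. An activated T cell makes many new ribosomes before it divides.

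Each value rests on deposited counts of unique reads by gene, of which the WT library held 6650066 on 13078 genes and the KO library 6185108 on 12754 genes. The targeted gene *Trim28* fell from 4485 WT reads to 180 KO reads, with a log2 fold change (KO/WT) of -4.53. All 5 T cell markers were read in both libraries and summed to 24158 WT and 19672 KO reads, with *Cd28* falling from 8897 to 5191, *Cd4* at 7904 and 6598 and *Cd3e* at 4407 and 4778. Of the 5 Th17 markers, 4 fell (among them *Il17a* from 2226 to 381 reads, *Il17f* from 3143 to 345 and *Il23r* from 195 to 107), and *Ccr6* had 5 and 7 reads. The 4 B cell markers summed to 75 WT and 44 KO reads, the CD8 T cell markers to 53 and 29, the 5 myeloid markers to 1 and 3, and no erythroid marker was listed. The part of these marker levels in the values below was not tested, and in bulk RNA fewer cells of a type and less RNA per cell cannot be told apart.

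To see how these genes start, the 30 bases around an annotated start (15 before and 15 from the start on) were read from the RefSeq promoter table of GRCm38.p6. They are shown for genes at the extremes of level or of change that have an entry, because the TOP tract is the sequence feature these mRNAs are known to share. Capitals mark the longest TOP tract, or the first of those equally long. Such a tract is a C followed by at least 4 C or T on the gene's strand, its first C within 10 bases of the start. A sequence without capitals holds none. Where a gene had several annotated starts (*Rpl22* 2, *Rpl35a* 3), one with a tract was shown, and a gene was counted if any of its starts held one.
Rps26, chr10:128626492-128626521, minus strand: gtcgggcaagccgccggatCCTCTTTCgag
Rpl22, chr4:152324421-152324450, plus strand: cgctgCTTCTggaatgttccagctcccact
Rplp2, chr7:141447636-141447665, plus strand: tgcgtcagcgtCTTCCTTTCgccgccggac
Rps27, chr3:90213634-90213663, minus strand: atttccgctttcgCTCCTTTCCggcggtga
Rps15a, chr7:118116133-118116162, minus strand: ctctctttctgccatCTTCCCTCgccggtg
Rpl35a, chr16:33056467-33056496, plus strand: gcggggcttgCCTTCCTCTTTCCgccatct
Rpl31, chr1:39367836-39367865, plus strand: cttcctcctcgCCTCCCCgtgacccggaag
Rpl23, chr11:97782425-97782454, minus strand: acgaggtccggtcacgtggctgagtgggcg
Rpl24, chr16:55966260-55966289, plus strand: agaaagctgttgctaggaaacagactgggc
Rps4x, chrX:102189377-102189406, minus strand: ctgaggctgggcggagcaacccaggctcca
Rpl41, chr10:128549154-128549183, minus strand: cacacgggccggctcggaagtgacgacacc

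Of the 57 canonical genes with an entry in the promoter table, 34 (59.65%) held such a tract, beside 9297 of 27025 genes (34.4%) in the whole table and 2997 of 8221 tested genes (36.46%). The same rule found a tract in 31 of 67 mitochondrial ribosomal protein genes with an entry (46.27%). Among the other RNAs known to carry a TOP tract, listed below, it found one in 6 of 12 with an entry. The rule thus missed some known TOP mRNAs and was not particular to the canonical genes. The match is a description, since an annotated start need not be the start used in these cells. *Rps26*, *Rplp2* and *Rpl22* all hold a tract, the first near the top and the others at the foot of the levels given below. The marked tract of *Rpl22* ends before the annotated start, and another of the same length lies after it. The genes printed without a tract include *Rpl23*, with the largest fall, and *Rpl24*, which rose. The median log2 fold change was -0.04 over the 33 tested canonical genes with a tract, -0.08 over the 23 without one and -0.05 over the 20 with no entry.

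Messenger RNA of the ribosomal proteins made up a large share of both libraries and a slightly smaller one in the KO library. The 89 genes held 811333 of the WT reads, 12.2% (exact Clopper-Pearson 95% interval 12.18 to 12.23%), and 725811 of the KO reads, 11.7% (11.71 to 11.76%). The log2 ratio of the shares was -0.06 (-0.06 to -0.05). The large-subunit genes gave 476473 and 429512 reads (7.16% and 6.94%), and the small-subunit genes gave 327995 and 290626 (4.93% and 4.70%), so both subunits had slightly lower shares in the KO library. These intervals, and every p-value below, cover counting error only and compare 2 libraries, not the genotypes, so no difference has a replicate check. Reads were not marked by molecule, so copies made by PCR count as separate reads.

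Most ribosomal protein mRNAs stood far above the typical gene. Levels per length are given as RPKM (reads per kilobase of annotated transcript per 1000000 reads of the library), and had a median of 2023 over the 77 canonical genes in the WT and 1984 in the KO library. The median over all tested genes was 10.3 in the WT and 9.75 in the KO library. Of the 20 genes with the most reads in the WT library 10 were canonical ribosomal protein genes, and in the KO library 7 were. The order of the canonical genes by RPKM was close to the same in the 2 libraries (Spearman's rho 0.99 across 77 genes, which share their libraries and lengths).

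**Figure D1:**
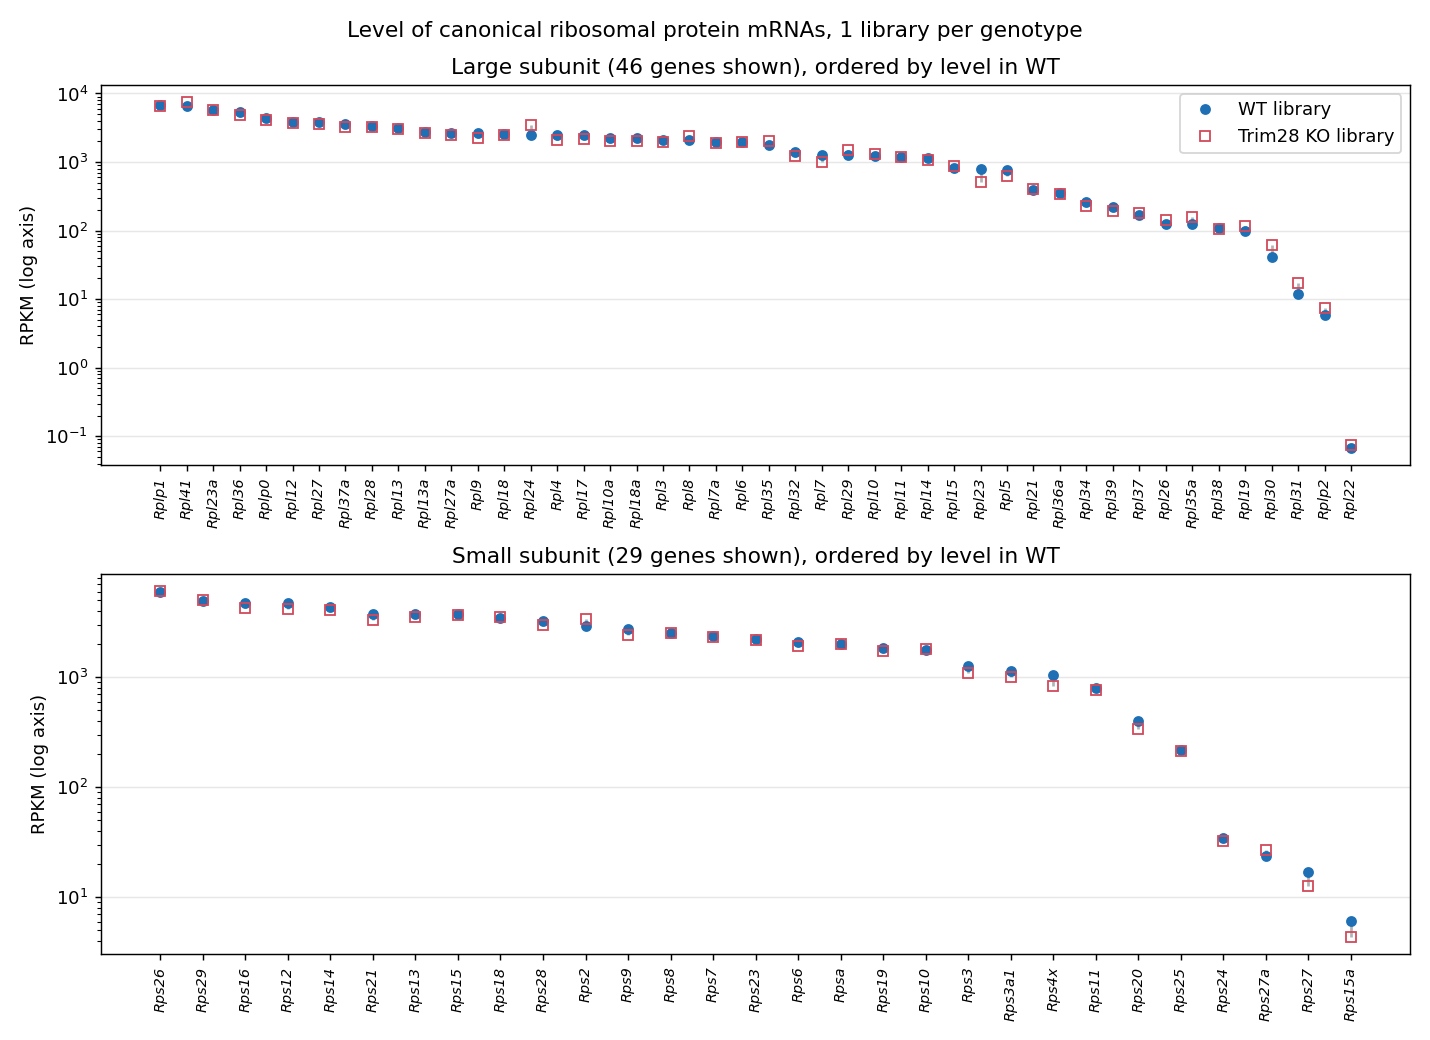
RPKM (log axis) of canonical ribosomal protein genes in the WT library (filled circles) and the KO library (open squares), for 46 large-subunit genes (top) and 29 of the 31 small-subunit genes (bottom), ordered by the WT level, with 1 library per genotype. Paired symbols mostly lie on each other, and the level drops sharply at the right, to 0.068 RPKM for *Rpl22* and 6.06 for *Rps15a* in the WT library.

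At the top of the order stood *Rplp1*, a protein of the stalk that recruits elongation factors, at 6749 RPKM in the WT and 6590 in the KO library. *Rpl41*, which encodes a very small basic peptide of the large subunit, followed at 6615 and 7461 RPKM. Next came *Rps26*, which lies at the mRNA exit of the small subunit, at 5968 and 6054, *Rpl23a*, which lies at the peptide exit tunnel, at 5661 and 5793, and *Rpl36*, another large-subunit protein, at 5324 and 4821 RPKM. The KO level was above the WT level for *Rpl41*, *Rps26* and *Rpl23a* and below it for *Rplp1* and *Rpl36*. Of these 5, *Rpl41* had the largest difference, a log2 fold change of 0.17 (0.15 to 0.20), and the interval of *Rps26* held 0 (-0.01 to 0.05). These directions rest on leaving the trend with transcript length in, since with its curve taken off *Rpl41* (-0.11), *Rps26* (-0.26) and *Rpl23a* (-0.25) were also below 0 and *Rpl36* (-0.43) differed most. With the GC curve taken off, *Rps26* was at -0.0010 and *Rpl36* (-0.24) again differed most.

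The lower end of the order was far from the rest, although the proteins are built into the ribosome in like numbers. *Rpl22*, a large-subunit protein whose loss in mice stops the development of αβ T cells, had 1 read in each library. *Rplp2*, the partner of *Rplp1* in the stalk, had 18 WT reads and 21 KO reads (5.96 and 7.48 RPKM), beside 21005 and 19076 reads of *Rplp1*. *Rps15a* was at 6.06 and 4.38 RPKM, *Rpl31* at 12.0 and 17.3, and *Rps27* at 16.9 and 12.6. In all, 16 canonical genes had fewer than 1000 reads in both libraries, while 42 had more than 10000 in the WT and 40 in the KO library.

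Ribosomal protein genes have many processed copies in the genome, and reads that fit a gene and its copy are not unique. For each canonical gene, the share of the 50-base stretches of its transcript that occur exactly elsewhere on the chromosomes of GRCm38.p6 was counted. The median share was 72.3%, and it was over 90% for 16 genes and at most 50% for 24. The 16 genes with the most copied sequence had a median of 2149 RPKM in the WT library (16.9 to 5661), and the 24 with at most 50% had 1225 (0.068 to 4324). Spearman's rho was 0.22 across 77 genes.

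*Rpl28*, a large-subunit protein with all of its 50-base stretches copied, nonetheless held 11154 WT reads and 10077 KO reads. *Rpl22*, with 5.71% copied, was at 1 and 1. The genes with few reads thus include *Rpl22*, with little copied sequence, and *Rps27*, with 100%. For *Rps15a* the share was 6.76% of a transcript taken as 5136 bases long, with 344 stretches copied, beside 297 for *Rps27*. The rule by which reads with several matches were counted is not given in the sources used here. In 7 canonical genes more than 10% of the exon sequence overlaps another gene, and reads of overlapping genes may be shared.

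**Figure D2:**
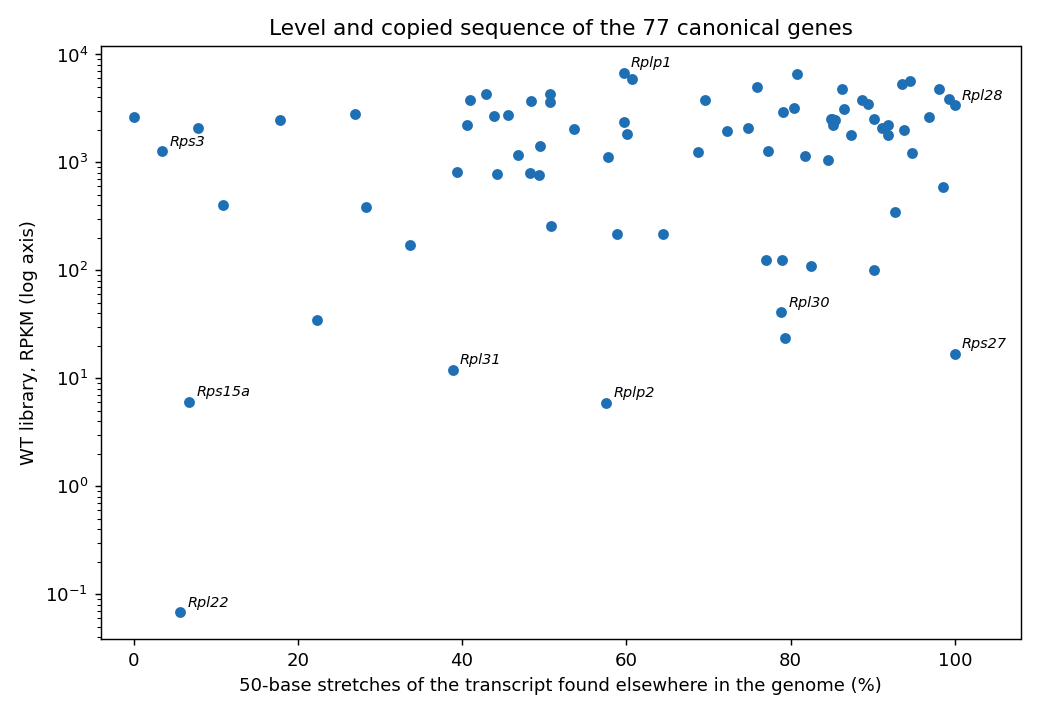
Share of 50-base stretches of each canonical transcript that occur exactly elsewhere in the genome (x axis, %) against its level in the WT library (y axis, RPKM, log axis), 1 point for each of the 77 genes, with 9 genes named. Genes over 90% copied reach from 16.9 to 5661 RPKM, and *Rpl22*, with 5.71% copied, lies lowest.

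The KO library was then compared with the WT library gene by gene. A gene was called changed, and is said below to have risen or fallen, at an adjusted p under 0.05 (two-sided exact binomial test of its reads, Benjamini-Hochberg over the 10881 genes with at least 10 reads in both libraries together) together with a level at least 25% higher or at least 20% lower in the KO library. Of the 89 genes 83 had enough reads for the test. The 76 tested canonical genes had a median log2 fold change of -0.05, beside -0.02 over all tested genes, and ranged from -0.61 to 0.60. Of them, 4 rose, *Rpl24*, *Rpl30*, *Rpl31* and *Rpl35a*, where 15.7% of all tested genes did. Another 4 fell, *Rpl23*, *Rpl7*, *Rps4x* and *Rps15a*, where 18.2% of all tested genes did. Of these 8, only *Rpl23* stayed called once replicates were assumed to vary (edgeR's exact test, coefficient of variation 0.1), and at 0.2 and 0.4 none did. With a curve against GC content taken off, the 4 rises and *Rpl23* were called, but *Rpl7*, *Rps4x* and *Rps15a* were not, and with one against transcript length 33 canonical genes were called lower and 0 higher, *Rps15a* not among them.

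No canonical gene was called at a 2-fold change by the same exact test in either direction, beside 2.57% of all tested genes higher and 5.53% lower (56 of the 76 had an unadjusted p under 0.05). EdgeR's exact test was run on the same fold changes, none of which reached 2-fold, so it could call none there. Most canonical genes differed by little: 67 of 76 stayed inside these limits of 25% and 20%, and 40 differed by less than 1.1-fold. Because these genes are so deeply read, with a median half-width of the log2 interval of 0.04, small differences passed the adjusted p alone, with 36 lower (47.4%) and 16 higher (21.1%). Among all tested genes these shares were 22.4% and 21.4%.

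**Figure D3:**
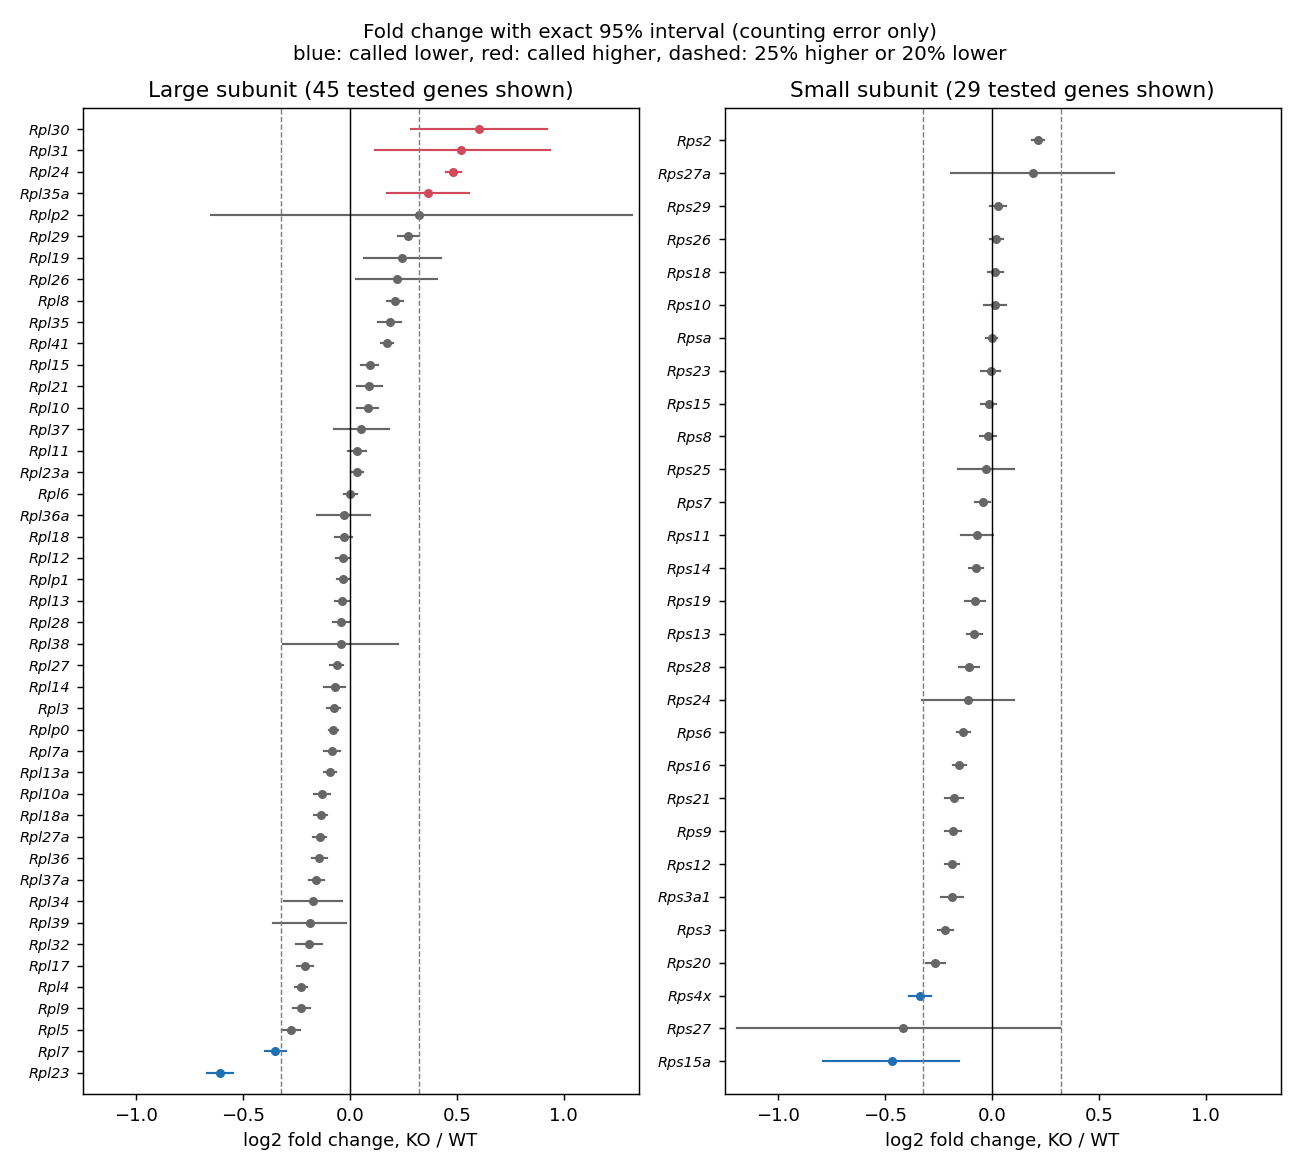
Log2 fold change (KO/WT, x axis) of the 45 tested large-subunit genes (left) and 29 of the 31 small-subunit genes (right), with exact 95% intervals as horizontal lines (counting error only), 1 library per genotype. Dashed lines mark levels 25% higher and 20% lower. The 4 genes in red rose, the 4 in blue fell, and most of the others crowd near 0.

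*Rpl23*, a large-subunit protein at the face between the subunits and one of those that bind MDM2, showed the largest fall. It lies on chromosome 11 (97777526 to 97782439 of GRCm38.p6, 5 exons). It had 5519 WT reads and 3370 KO reads, or 781 and 513 RPKM, and was 1.52-fold lower in the KO library (log2 fold change -0.61, 95% interval -0.67 to -0.55). *Rpl7*, another core protein of the large subunit (chromosome 1, 16101295 to 16104433), fell from 7924 to 5787 reads (-0.35, -0.40 to -0.30). The X-linked small-subunit gene *Rps4x* (102184941 to 102189391) fell from 6805 to 5016 reads (-0.34, -0.39 to -0.28).

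For these 3 deeply read genes counting error is small beside the fall. The fall of *Rps4x* lies close to the limit of 20% and was short of it under TMM scaling and DESeq2's size factors (log2 fold changes of -0.316 and -0.317). *Rps15a*, another small-subunit gene, fell from 207 to 139 reads (-0.47, -0.79 to -0.15) on far fewer reads. With the length curve taken off it was at -0.19 and not called, its length being taken as 5136 bases. Its copy *Rps15a-ps6* (824 bases), described below, was then at -0.91. *Rps27*, a zinc-finger protein of the small subunit, had 39 and 27 reads, and its log2 fold change of -0.42 did not pass (adjusted p = 0.394, exact binomial test, Benjamini-Hochberg).

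Among the genes that rose, only *Rpl24* was deeply read. It encodes a large-subunit protein that bridges the 2 subunits and lies on chromosome 16 (55966275 to 55971437, 6 exons). Its reads numbered 11354 in WT and 14773 in KO, or 2515 and 3518 RPKM, which is 1.40-fold higher (log2 fold change 0.48, 0.45 to 0.52). *Rpl30*, which also binds selenoprotein mRNAs, rose from 143 to 202 reads (0.60, 0.29 to 0.92). *Rpl31*, a protein near the exit tunnel, rose from 89 to 119 (0.52, 0.12 to 0.94), though 37.5% of its exon sequence overlaps another gene, *Tbc1d8*.

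*Rpl35a*, one of the genes mutated in Diamond-Blackfan anaemia, rose from 418 to 501 reads (0.37, 0.18 to 0.56), and 16.57% of its exon sequence overlaps *Iqcg*. *Rpl29*, another large-subunit gene, had 6971 and 7830 reads and stayed under a 25% rise (0.27, 0.23 to 0.32). So 3 of the 4 genes that rose had fewer than 1000 reads in both libraries, whereas 3 of the 4 that fell had more. The 61 canonical genes with at least 1000 reads in a library had a median log2 fold change of -0.07, and the 15 tested genes with fewer had 0.05.

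Taken by subunit, both sets had medians just below 0. Large-subunit genes had a median log2 fold change of -0.04, with 4 called higher and 2 lower of 45 tested. Small-subunit genes had a median of -0.08, with 0 called higher and 2 lower of 31. By the adjusted p of the exact binomial test alone (Benjamini-Hochberg), with no limit on size, 14 large-subunit genes were higher and 20 lower, and 2 small-subunit genes were higher (among them *Rps2*) and 16 lower. Among all tested genes 15.7% were called higher and 18.2% lower, and by the adjusted p alone 21.4% were higher and 22.4% lower. With the length curve taken off the medians were -0.31 for the large and -0.30 for the small subunit. The difference between the subunits was not tested.

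The P stalk, formed by *Rplp0*, *Rplp1* and *Rplp2*, calls the elongation factors to the ribosome. *Rplp0*, the base of the stalk, was the most read of all ribosomal protein genes and the fourth of all genes in the WT library, with 39047 WT reads and 34422 KO reads. Its log2 fold change was -0.08 (-0.10 to -0.06), and that of *Rplp1* was -0.03 (-0.06 to -0.01), both inside the limits. For *Rplp2* the interval ran from -0.65 to 1.32, so its 18 and 21 reads leave differences inside that range undetectable at this depth.

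*Rpl5* and *Rpl11* carry the ribosome's 5S RNA and, when ribosome assembly stalls, hold back MDM2. *Rpl5* had 10240 WT and 7859 KO reads, with a log2 fold change of -0.28 (-0.32 to -0.23), with 47.75% of its exon sequence shared with *Dipk1a*. *Rpl11* had 9433 and 8981 reads (0.03, -0.01 to 0.08). The partners thus had different values: *Rpl5* lay short of a 20% fall, and the interval of *Rpl11* held 0. With the length curve taken off both were below 0, *Rpl5* called lower (-0.38) and *Rpl11* at -0.19. With the GC curve taken off they were at -0.13 and 0.07.

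Of the 4 X-linked genes only *Rps4x*, described above, was called. *Rpl10*, the protein that joins the large subunit late in its assembly, had 6481 and 6385 reads (log2 fold change 0.08, 0.03 to 0.13). *Rpl36a*, a large-subunit protein near the tRNA exit site, had 1141 and 1040 (-0.03, -0.15 to 0.09), and *Rpl39*, a small protein that lines the exit tunnel, had 633 and 517 (-0.19, -0.36 to -0.02). Thus 3 of the 4 X-linked genes had a value below 0, beside 51 of the 76 tested canonical genes and 5591 of all 10881 tested genes. With the length curve taken off all 4 were below 0, and *Rpl39* (-0.47) was called lower as well as *Rps4x* (-0.59).

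Paralogs give cells a second version of a ribosomal protein, often in germ cells or in certain tissues. *Rpl22l1*, the paralog of *Rpl22*, had 0 WT reads and 3 KO reads, so both members of this pair were near or at 0. A count of 0 allows up to 0.451 CPM (counts per 1000000 reads, 3 reads in the WT library). *Rpl39l* had 6 and 2 reads, *Rps4l* 8 and 1, and *Rpl10l*, a testis paralog, 0 and 1, all too few to test. *Rpl3l*, the muscle paralog of *Rpl3*, was listed in neither library.

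The remaining paralogs were well read. *Rps27l*, a p53-inducible paralog, had 757 WT reads and 816 KO reads (log2 fold change 0.21, 0.07 to 0.36), which was 95.1% and 96.8% of the reads on *Rps27* and *Rps27l* together. *Rpl36al* had 1796 and 1476 reads (-0.18, -0.28 to -0.08), or 61.2% and 58.7% of its pair with *Rpl36a*. With the length curve taken off *Rpl36al* was called lower (-0.46) and *Rps27l* was at -0.070. With the GC curve taken off *Rps27l* was called higher (0.32) and *Rpl36al* was at -0.12. *Rpl7l1* had 1133 and 1030 (-0.03, -0.16 to 0.09) and was not called, where *Rpl7* was. In these pairs the paralog's share moved by no more than a few percentage points between the libraries. These are shares of unique reads, and the share of copied sequence differed within each pair. It was 100% for *Rps27* and 25.81% for *Rps27l*, and 92.73% for *Rpl36a* and 71.37% for *Rpl36al*. For *Rpl7* it was 77.29% and for *Rpl7l1* 14.78%. The part of copied sequence in the paralog shares was not tested, so they need not be shares of the mRNA.

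Both *Rpl34-ps1* and *Rps15a-ps6* held more reads than the gene they are named after. The former had 2851 WT reads and 2147 KO reads, or 74.7% and 73.0% of the reads on it and *Rpl34*, which had 965 and 796. *Rps15a-ps6*, the one of 5 pseudogenes that fell, had 304 and 181 reads (-0.64, -0.92 to -0.37), or 59.5% and 56.6% of its pair with *Rps15a*. All 50-base stretches of *Rpl34-ps1* occur elsewhere in the genome, so how reads were split within a pair is uncertain. Summed, the *Rpl34* pair had a log2 fold change of -0.27 (-0.34 to -0.20) and the *Rps15a* pair -0.57 (-0.78 to -0.37). Parent and copy were each lower in the KO library in both pairs, so the sums had to be lower too. The call of *Rps15a-ps6* was lost with an assumed coefficient of variation of 0.1, and *Rpl34-ps1* was called lower (-0.59) with the length curve taken off.

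Next to these genes stand the ribosomal proteins with other names. *Fau*, whose product is a small-subunit protein fused to a ubiquitin-like protein, had 3183 WT reads and 2427 KO reads (log2 fold change -0.29, -0.36 to -0.21). *Rack1* (listed as *Gnb2l1*), a signalling scaffold on the small subunit, had 22334 and 18947 (-0.13, -0.16 to -0.10). Neither was called. Both were called lower with the length curve taken off (*Fau* -0.57, *Rack1* -0.35). *Fau* was also called lower with the GC curve taken off (-0.38), where *Rack1* was at -0.15 and not called.

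The proteins of the mitochondrial ribosome, which translates the mRNAs of the mitochondrial genome, had higher values than the cytosolic ones. Of the 76 genes with symbols beginning with Mrpl or Mrps, 40 rose and 0 fell (none lower by the adjusted p of the exact binomial test alone either), with a median log2 fold change of 0.34 and a range of -0.16 to 0.95. Together they held 21426 WT reads and 25291 KO reads. Their median length was 1049 bases, and of the genes outside the canonical set in the shortest of 10 equal groups by length (109 to 1101 bases) 35.5% were called higher, with a median of 0.30. With the length curve taken off, the median of the mitochondrial set was 0.14. The cytosolic set had 4 higher and 4 lower of 76 tested, around a median of -0.05. No test of the difference between the 2 sets was made.

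Other RNAs known to carry a TOP tract had a median below that of the ribosomal protein genes in these libraries. This order turned with the length curve (-0.24 and -0.31) or the GC curve (-0.05 and -0.06) taken off. Of the 17 tested of 18 listed (*Eef1d*, with 0 and 6 reads, was not tested), 4 fell and 0 rose, with a median log2 fold change of -0.14. Among all tested genes 18.2% fell and 15.7% rose. *Gas5*, a snoRNA host transcript, fell from 1526 to 878 reads (-0.69), *Tpt1*, the tumour protein also called TCTP, from 27879 to 19312 (-0.43), and *Eef1a1*, which brings aminoacyl-tRNA to the ribosome, from 67093 to 47021 (-0.41). *Eef1b2*, its exchange factor, was the fourth (-0.33). That fall lies close to the limit of 20%. It is short of the limit under TMM scaling, DESeq2's size factors and upper-quartile scaling, which put every value slightly higher. The highest were *Eif3l* (1941 and 2242 reads, 0.31), a subunit of initiation factor eIF3, and *Nap1l1*, a histone chaperone (1251 and 1438, 0.31), neither past a 25% rise, and *Hnrnpa1*, a splicing factor (304 and 325, 0.20), whose interval held 0. With an assumed coefficient of variation of 0.1 *Eef1a1* and *Tpt1* were no longer called, and *Eef1a1* was not with the GC curve taken off (-0.31). *Eif3l* and *Nap1l1* were called higher under TMM scaling (0.33 and 0.32), DESeq2's size factors (0.33 and 0.32) and the GC curve (0.33 and 0.46).

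Of 17 other initiation factors, 4 rose and 5 fell, with a median of 0.01. Among 8 regulators of TOP mRNA translation, 2 rose and 3 fell. Of all tested genes 15.7% rose and 18.2% fell, and lists this small were not tested against these shares. *Mtor*, the kinase at the head of this pathway, fell from 890 to 582 reads (-0.51) and its partner *Rptor* from 747 to 508 (-0.45), while *Eif4ebp1*, the inhibitor of cap-dependent initiation that mTOR phosphorylates, rose from 348 to 516 (0.67). *Larp1*, which binds the tract, had 5240 and 4296 reads (-0.18) and was not called. The transcripts of *Mtor* (8595 bases) and *Rptor* (6946) belong to the longest of the 10 groups by length, where 49.5% of genes were called lower with a median of -0.43, and that of *Eif4ebp1* (981) to the shortest.

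**Figure D4:**
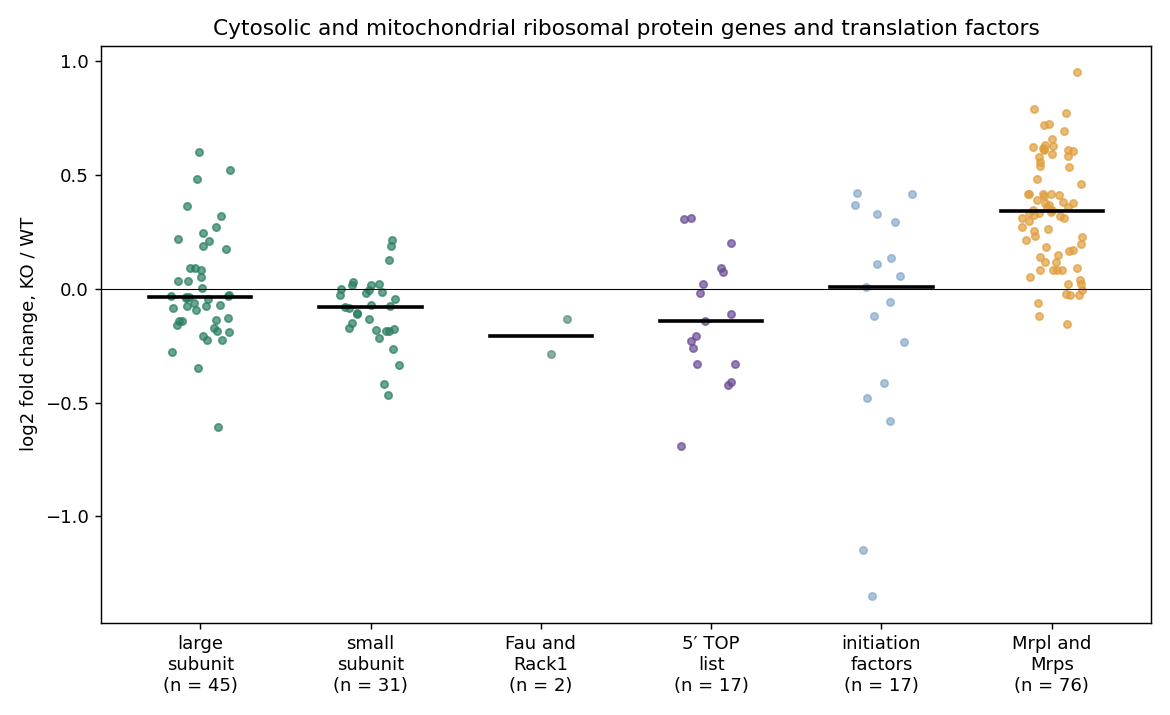
Log2 fold change (KO/WT, y axis) of each tested gene (points) and the median (black line) for the large-subunit and small-subunit genes, *Fau* and *Rack1*, the list with a 5′ TOP tract, other initiation factors and the mitochondrial ribosomal proteins, with 1 library per genotype. The large-subunit and small-subunit sets have medians just under 0 (-0.04 and -0.08). *Fau* and *Rack1* are at -0.29 and -0.13. The TOP list has a median of -0.14 (range -0.69 to 0.31) and the initiation factors 0.01 (-1.35 to 0.42). The mitochondrial set has a median of 0.34.

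Many ribosomal protein genes carry snoRNAs, guides of rRNA modification, in their introns. By the annotation, 30 of the 77 canonical genes did so, 20 of the large and 10 of the small subunit. Hosts had a median log2 fold change of -0.08 and the 46 other tested genes -0.04. Spearman's rho of the log2 fold change across the 76 tested canonical genes was -0.19 with transcript length, 0.28 with GC content and -0.11 with the WT level in RPKM, given as descriptions of genes that share their libraries.

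Transcript length moved with the fold change over the whole transcriptome, and ribosomal protein mRNAs are short. In the shorter 2 of 10 equal groups by length (109 to 1534 bases), which held 68 of the 76 canonical genes, the 2098 other genes had a median log2 fold change of 0.26. Of these other genes 31.6% were called higher and 5.72% lower. The 68 canonical genes there had a median of -0.04, with 4 higher and 3 lower. The longest of the 10 groups, from 6030 bases on, held no canonical gene.

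The values of the ribosomal protein genes depended on whether this trend is left in. With a loess curve of log2 fold change on log2 length taken off, the canonical median was -0.31, 70 of 76 lay below 0, and 33 were called lower, where 13.4% of all tested genes were called lower and 13.9% higher. *Rpl23* was then at -0.85 and *Rpl7* at -0.60, and *Rpl24* was at 0.21 and no longer called. With 1 library per genotype, a length trend of the libraries and one of the cells cannot be told apart.

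**Figure D5:**
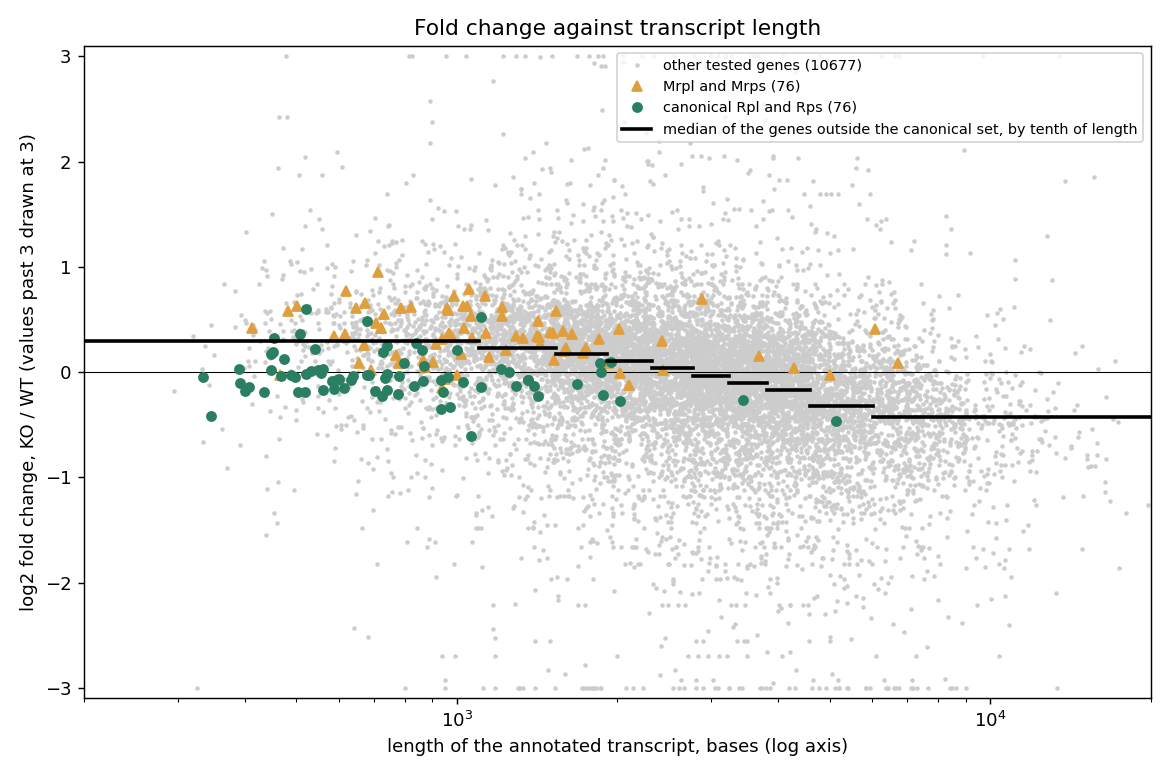
Log2 fold change (KO/WT, y axis, values past 3 drawn at 3) against the length of the annotated transcript (bases, log axis from 200 to 20000, which leaves out 8 genes) for all tested genes with a length. Black lines give the median of the genes outside the canonical set in each of 10 equal groups by length, falling from 0.30 to -0.43. Canonical ribosomal protein genes (green) lie mostly below the line of the short genes, and the mitochondrial ones (orange) lie around or above it.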

How the data were processed

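RNA-seq libraries of WT and KO Th17 cells, 1 each, were analysed; the study's ChIP-seq samples were not analysed here. According to the methods, reads were mapped to mm10 with SOAP2. The submitters' processing notes list bcl2fastq, HTSeq, Bowtie and SICER 1.1 without roles. The authors deposited raw counts of unique reads per gene, without normalization. Annotation, strand and handling of reads with several matches are not given in the sources used here. A gene absent from one table was given 0 reads.

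Log2 fold changes were taken of counts plus 0.5, each scaled to its library's total. Where a gene had at least 10 reads in total, its split between the libraries was compared with that of all reads by an exact two-sided binomial test (SciPy 1.17.1), with Benjamini-Hochberg adjustment, since edgeR's quasi-likelihood test cannot be run without replicates. Of the 13704 symbols 12833 matched RefSeq (GRCm38.p6) and 804 a unique older symbol. Length was the median (the lower where even) of a gene's curated transcripts, so RPKM, the copied share and the length curve depend on it (*Rps15a*, 5136 bases). Copied sequence was counted in 50-base stretches. The members and lists were chosen with earlier results of these data known. Named genes were *Trim28*, the 5 highest and 5 lowest canonical genes by fold change (at least 50 reads) and by WT RPKM, the stalk, 5S, X-linked and paralog genes, *Fau*, *Rack1* and the 3 extremes each way of the TOP list; others were named after their values were seen, and a few genes that entered every fit and count are not reported here by name. Alternatives used edgeR 4.0.16, DESeq2 1.42.0 and loess (statsmodels 0.14.6, span 0.3). Calculations were tested on simulated data. Python 3.11.15 and R 4.3.3 were used.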

Additional observations from a re-analysis of the deposited data

How the results depend on the processing

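No paired analysis was possible because there was 1 library per genotype. Of 444 values of single named genes under the alternatives, 374 had the same sign and call, 45 no longer passed, 16 passed only there and 9 changed sign. With the length curve taken off, 0 canonical genes were called higher and 33 lower, the median was -0.31, and *Rpl10* (-0.19), *Rpl11* (-0.19), *Rpl23a* (-0.25), *Rpl41* (-0.11), *Rps26* (-0.26) and *Rps27l* (-0.070) changed sign. With the GC curve taken off, 1 was called lower (*Rpl23*), and *Rpl36a* (0.078), *Rpl7l1* (0.031) and *Rps26* (-0.0010) changed sign. TMM put the median of all tested genes 0.02 higher. With an assumed coefficient of variation of 0.1 in edgeR's exact test, 0 canonical genes were higher and 1 lower (*Rpl23*), with 0.2 there were 0 higher and 0 lower, and with 0.4 there were 0 higher and 0 lower. The share of reads was 12.1% in WT and 11.6% in KO for the canonical genes alone, and 12.1% and 11.6% for all members without the 10 genes with the most reads. The calls at 2-fold stayed at 0 under every alternative run, since no canonical gene reached a 2-fold change in any of them. The real spread between cultures was not measured, so the counts called rest on reads only, and genes with few reads (*Rplp2*, *Rps27*) leave wide intervals.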
